A study of Arabidopsis thaliana with 6 samples.

Results

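The genes described here are 6 ethylene response factor (ERF) genes, ERF1, ERF2, ERF4, ERF5, ERF6 and ERF104, the ethylene synthesis gene ACS6, and 3 defence genes that ERF proteins control, PR4, CHI-B and PDF1.2. They were chosen by name for their place in ethylene signalling, with earlier results of these data known. They make up 10 of the 22810 probe sets of the array. Transcript levels were measured on 6 Affymetrix ATH1 arrays of Arabidopsis thaliana. The 3 control and the 3 saliva arrays all came from wild-type Col-0 plants, 3 weeks old, grown on soil at 23 °C and 50% relative humidity with 16 h of light and used before flowering. The seeds of both groups had a cold treatment of 24 h at 4 °C. The saliva plants were treated with saliva of the green peach aphid, Myzus persicae, a phloem feeder. The tissue, the route of the saliva, the time after treatment and what the control plants received are not given in the labels used here. The labels do not say whether replicates came from separate plants or experiments, so the spread on which the p-values rest may be technical.

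The platform annotation used here names the gene of 1 of the 10 probe sets, 249052_at, as PDF1.2 (AT5G44420). The other 9 are not listed in it, and none is listed with another locus, so all 10 were kept. Their gene names are those of the list that defined the set and could not be checked against the annotation: 257918_at for ERF1, 248794_at for ERF2, 257053_at for ERF4, 248799_at for ERF5, 245250_at for ERF6, 247543_at for ERF104, 254926_at for ACS6, 258791_at for PR4 and 256243_at for CHI-B. A gene name below stands for that probe set. No sequence of these genes or probes was used here.

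Ethylene is made from the precursor ACC, whose synthesis by ACC synthases such as ACS6 is usually the limiting step. When ethylene binds its receptors, the transcription factor EIN3 accumulates and switches on ERF1, and ERF proteins in turn bind the GCC box in promoters of defence genes. Jasmonate acts on the same branch, and the defensin gene PDF1.2, the hevein-like gene PR4 and the basic chitinase gene CHI-B are widely used as its readouts. ERF5, ERF6 and ERF104 are also known as rapid-response genes, which rise within minutes of wounding, touch or the perception of microbial patterns.

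The arrays had the same trimmed mean signal of 100 and median signals between 32.4 and 33.4, and correlated with each other at 0.975 to 0.987 over the 13647 probe sets tested. Saliva replicate 3 stood apart, at 22.7 on the first principal component against 0.37 and 5.31 for the other saliva arrays and -13.0 to -7.07 for the controls. The summed signal of the 3 root markers PYK10, EXPA7 and EXPA18 was 8.10 to 17.3 on the control arrays and 9.38 to 18.7 with saliva, each marker being under the filter described next. Of 3 leaf markers the annotation named 1, the mesophyll gene PRK, a Calvin cycle enzyme gene. PRK had signals of 4235, 4058 and 3870 on control replicates 1 to 3 and 3257, 3290 and 3819 on saliva replicates 1 to 3. Its groups did not overlap, with a difference of -0.23 ± 0.10 on the log2 scale used below (95% interval -0.44 to -0.03, limma adjusted p = 0.418), and the part of this in the results was not tested. The guard cell gene FMA, the 1 of 3 that the annotation named, lay between 41.6 and 51.0. Of the flower and phloem markers the annotation named 0 of 3 each.

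The comparison asked whether these genes differed between saliva and control plants. Differences are on the scale log2(signal + 16), which understates changes of dim probe sets, and ± values without further words are standard errors from limma. A filter left out the 40% of probe sets with the lowest mean. Of the 10 members 8 passed it, and ERF1 and CHI-B did not. None of the 8 passed a limma adjusted p of 0.05 over all probe sets tested, against a background of 8 of 13647 (0.0586%). PR4 and ERF2 were higher on every saliva array than on every control array and had an unadjusted limma p under 0.05. Over all probe sets tested 15.5% had groups that did not overlap, 7.8% with saliva higher, and 10.2% had an unadjusted p under 0.05, 5.39% with saliva higher, so 2 of 8 members is a count too small to read against these shares. Of the 8 members 4 differed upward and 4 downward, with a median of -0.02, where all probe sets tested had a median of 0.01.

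Among the ERF genes, ERF2, which encodes an activator of GCC box genes, had signals of 103, 134 and 106 on the control arrays and 179, 145 and 144 on the saliva arrays, with replicates in the order 1, 2, 3 here and below. The highest control value, that of replicate 2, lay under the lowest saliva value, that of replicate 3. ERF2 differed by 0.40 ± 0.13, a 1.32-fold difference, with a 95% interval of 0.12 to 0.68 (limma p = 0.0084 unadjusted, adjusted p = 0.266; two-sided exact permutation p = 0.1, the smallest that 3 arrays against 3 allow). With single arrays left out the difference ran from 0.31 to 0.51, and it kept an unadjusted p under 0.05 in each of the 6 cases. These cases reuse the arrays of the full fit and are no further support.

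ERF104, whose protein is a substrate of the mitogen-activated protein kinase MPK6, had signals of 219, 260 and 226 on the control arrays and 151, 231 and 208 with saliva. Saliva replicates 1 and 3 were the lowest arrays, but saliva replicate 2 was above control replicates 1 and 3, so the groups overlapped. The difference was -0.26 ± 0.14, with a 95% interval of -0.56 to 0.05 (limma adjusted p = 0.589). It was -0.09 without saliva replicate 1 and -0.37 without saliva replicate 2.

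ERF4 encodes a repressor of GCC box genes and so stands opposite to ERF2 in its known function. Its signals were 127, 279 and 178 on the control arrays and 192, 185 and 128 with saliva. The highest value, on control replicate 2, and the lowest, on control replicate 1, both belonged to the control group. The difference was -0.15 ± 0.22, with a 95% interval of -0.62 to 0.33 (limma adjusted p = 0.879), and it turned to 0.13 without control replicate 2 and to 0.02 without saliva replicate 3.

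ERF5 and ERF6 encode close relatives that respond to chitin and to osmotic stress. ERF5 had signals of 35.9, 59.2 and 28.8 on the control arrays and 40.9, 51.0 and 32.01 with saliva, and ERF6 had 66.1, 79.4 and 64.3 on the control arrays and 67.2, 86.4 and 49.3 with saliva. In both genes replicate 2 was the highest array of each group. ERF5 differed by 0.02 ± 0.19 (95% interval -0.39 to 0.43, limma adjusted p = 0.986) and ERF6 by -0.06 ± 0.16 (95% interval -0.40 to 0.28, limma adjusted p = 0.943). Both signs depended on single arrays: ERF5 ran from -0.14 to 0.23 and ERF6 from -0.22 to 0.11 with arrays left out in turn. Since the intervals reach well to either side of 0, these values do not show that the genes were unaffected.

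ERF1, the direct target of EIN3, was under the filter. Its signals were 12.6, 1.19 and 2.68 on the control arrays and 0.994, 7.13 and 6.96 with saliva, so that the highest and the lowest value lay in different groups and the groups overlapped throughout. In the fit without the filter it differed by -0.01 ± 0.21 (limma adjusted p = 0.997). No detection calls were used here, and whether ERF1 exceeded background on any array was not tested.

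ACS6 had signals of 101, 134 and 114 on the control arrays and 97.3, 106 and 99.9 with saliva. The saliva values were closer together, with an SD of 4.27 (n = 3) against 16.7 (n = 3) in the controls, and saliva replicate 2 lay above control replicate 1. The difference was -0.17 ± 0.12, with a 95% interval of -0.43 to 0.09 (limma adjusted p = 0.682), and it was -0.08 to -0.26 with single arrays left out.

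**Figure D1:**
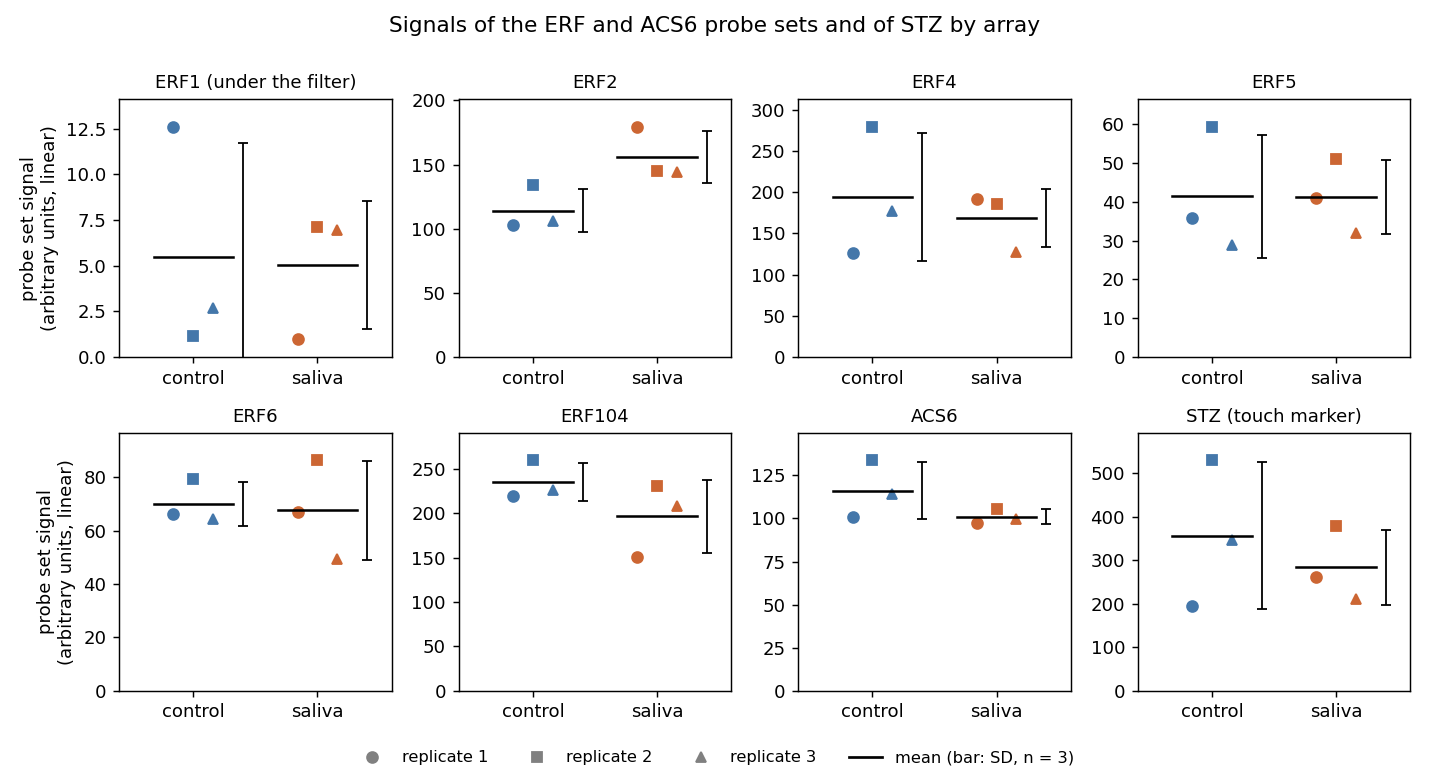
Probe set signal (vertical axes, linear, arbitrary units, starting at 0) of the 6 ERF genes, ACS6 and the touch and wounding marker STZ on the 3 control and 3 saliva arrays. Symbols are replicates, horizontal lines are group means and bars are SDs (n = 3), cut off at 0 for ERF1; the groups are apart for ERF2 (103 to 134 against 144 to 179), and control replicate 2 is the highest array for ERF4, ERF5, ERF104, ACS6 and STZ.

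Several of these genes were highest on the same control array. Control replicate 2 was the highest of all 6 arrays for ERF4, ERF5, ERF104 and ACS6, 4 of the 8 members tested. This array was singled out after the values were seen, and 13.8% of all probe sets tested were highest there, so the count is a description only. In ERF4 its signal was 1.83 times the mean of the other controls, in ERF5 also 1.83 times, in ACS6 1.25 times, in ERF6 1.22 times and in ERF104 1.17 times. Saliva replicate 2 was likewise above the mean of the other saliva arrays, at 1.48 times that mean in ERF6, 1.399 times in ERF5, 1.29 times in ERF104, 1.16 times in ERF4 and 1.07 times in ACS6, so that for ERF6 and ERF104 the ratio was larger there than on control replicate 2. The zinc finger gene STZ, a marker of touch and wounding, was highest on the same array, with signals of 194, 530 and 347 on the control arrays and 262, 379 and 211 with saliva. STZ was the 1 of 3 touch and wounding markers that the annotation named, so that the summed level of the list is that of STZ. The part of handling, or of any other difference between single arrays, in these values was not tested. Among the controls ERF2 was also highest on control replicate 2, at 134. Over all 6 arrays it was highest on saliva replicate 1, the array on which ERF104 and ACS6 were lowest.

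The 28 pairs of tested members were correlated over the 6 arrays, which share their scaling. The highest Pearson correlation was that of ERF5 with ERF6, at r = 0.80 (exact permutation p = 0.05, adjusted p = 0.412 over the 28 pairs) and Spearman's rho of 0.89 (exact permutation p = 0.0333, adjusted p = 0.467). Without the 2 arrays farthest from the median of ERF5, their r was 0.41. On deviations from the group means over all 6 arrays it was 0.81. Leaving out the extremes narrows the range of ERF5, so whether the relation rests on those arrays cannot be told. ERF104 and ACS6 had r = 0.73 (exact permutation p = 0.132, adjusted p = 0.412) and rho of 0.94 (exact permutation p = 0.0167, adjusted p = 0.467), with r = 0.68 without the 2 arrays farthest from the median of ERF104. None of the 28 pairs passed an adjusted p of 0.05 by either measure. ERF2 and ERF5 lie near each other on chromosome 5, with 1 protein-coding gene between them in the RefSeq gene table, and had r = 0.38 (exact permutation p = 0.468, adjusted p = 0.639) and rho of 0.37 (exact permutation p = 0.497, adjusted p = 0.658), with r = -0.40 without the 2 arrays farthest from the median of ERF2.

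**Figure D2:**
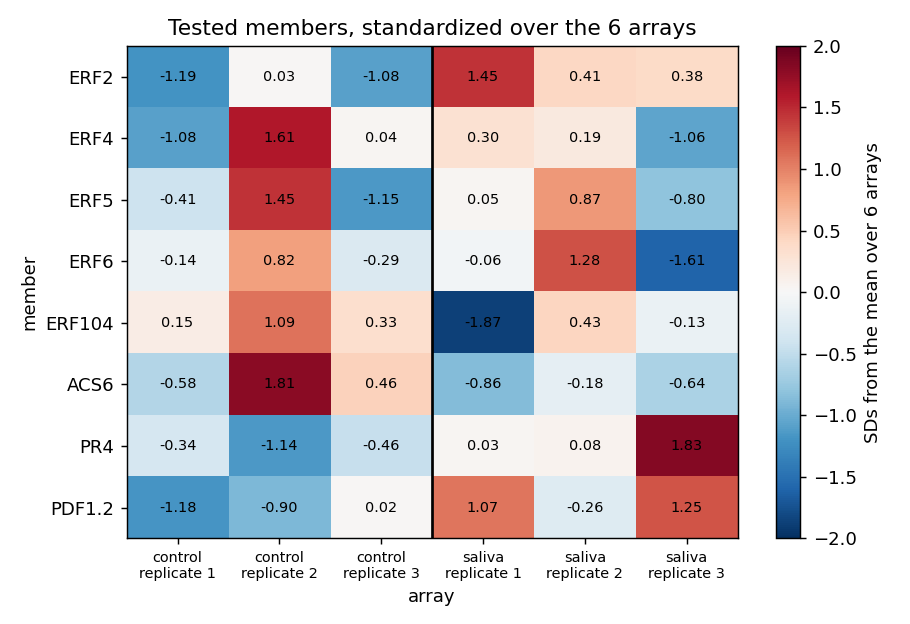
Each of the 8 members tested (rows) on the 6 arrays (columns), as the number of SDs from its own mean over the 6 arrays on the log2(signal + 16) scale, with red above and blue below the mean. Control replicate 2 is red for ERF4, ERF5, ERF6, ERF104 and ACS6 (0.82 to 1.81) and blue for PR4 (-1.14), and saliva replicate 3 is red for PR4 (1.83) and PDF1.2 (1.25).

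The genes with the array pattern most like the mean standardized profile of the 5 tested ERF genes were AT4G37880, AT4G03150, AT1G23980, PHYLLO (AT1G68890), a gene of phylloquinone synthesis, and AT1G03020. Their Pearson correlations with it were 0.97, 0.97, 0.97, 0.97 and 0.96 over 6 arrays, and 42 of the 7334 named probe sets searched had a correlation over 0.9. Their differences between saliva and control lay between -0.05 and 0.00 on the log2(signal + 16) scale. AT4G37880 shows the shape of this mean profile, with signals of 201, 258 and 197 on the control arrays and 212, 232 and 201 with saliva, replicate 2 being highest in each group. The 5 ERF genes did not all have this shape. All were highest among the controls on replicate 2. Among the saliva arrays ERF5, ERF6 and ERF104 were highest on replicate 2, but ERF2 and ERF4 on replicate 1. AT1G23980 hardly varied, between 24.0 and 26.9 over the 6 arrays. A search of 7334 probe sets over 6 arrays can return correlations this high without any relation, so the names are a description only.

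Among the defence genes, PR4, which encodes a chitin-binding hevein-like protein, had signals of 411, 317 and 395 on the control arrays and 462, 468 and 812 with saliva. All saliva values lay above all control values, and saliva replicate 3 stood far above the other 5 arrays. The difference was 0.57 ± 0.18, a 1.48-fold difference, with a 95% interval of 0.17 to 0.97 (limma p = 0.00869 unadjusted, adjusted p = 0.267; two-sided exact permutation p = 0.1, the smallest possible). Without saliva replicate 3 it was 0.31 ± 0.13 (limma adjusted p = 0.383), and over all single arrays left out it ran from 0.31 to 0.71. Its unadjusted p stayed under 0.05 in each of the 6 cases, which reuse the arrays of the full fit and are no further support.

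PDF1.2, the defensin gene, had signals of 126, 131 and 146 on the control arrays and 165, 141 and 169 with saliva. Saliva replicates 1 and 3 were above all controls, while saliva replicate 2 was below control replicate 3. The difference was 0.21 ± 0.11, a 1.16-fold difference, with a 95% interval of -0.03 to 0.46 (limma adjusted p = 0.559), and it was 0.17 to 0.29 with single arrays left out. PDF1.2 has near-identical copies in the genome, among them PDF1.2c, its direct neighbour on chromosome 5, and whether the probes of 249052_at tell them apart was not tested.

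CHI-B, the basic chitinase gene, was under the filter, with signals of 14.3, 9.05 and 6.10 on the control arrays and 8.27, 19.3 and 23.2 with saliva. Saliva replicates 2 and 3 were the highest arrays and saliva replicate 1 lay among the controls. In the fit without the filter it differed by 0.33 ± 0.21 (95% interval -0.14 to 0.80, limma adjusted p = 0.745), and without saliva replicate 3 by 0.19 ± 0.21.

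**Figure D3:**
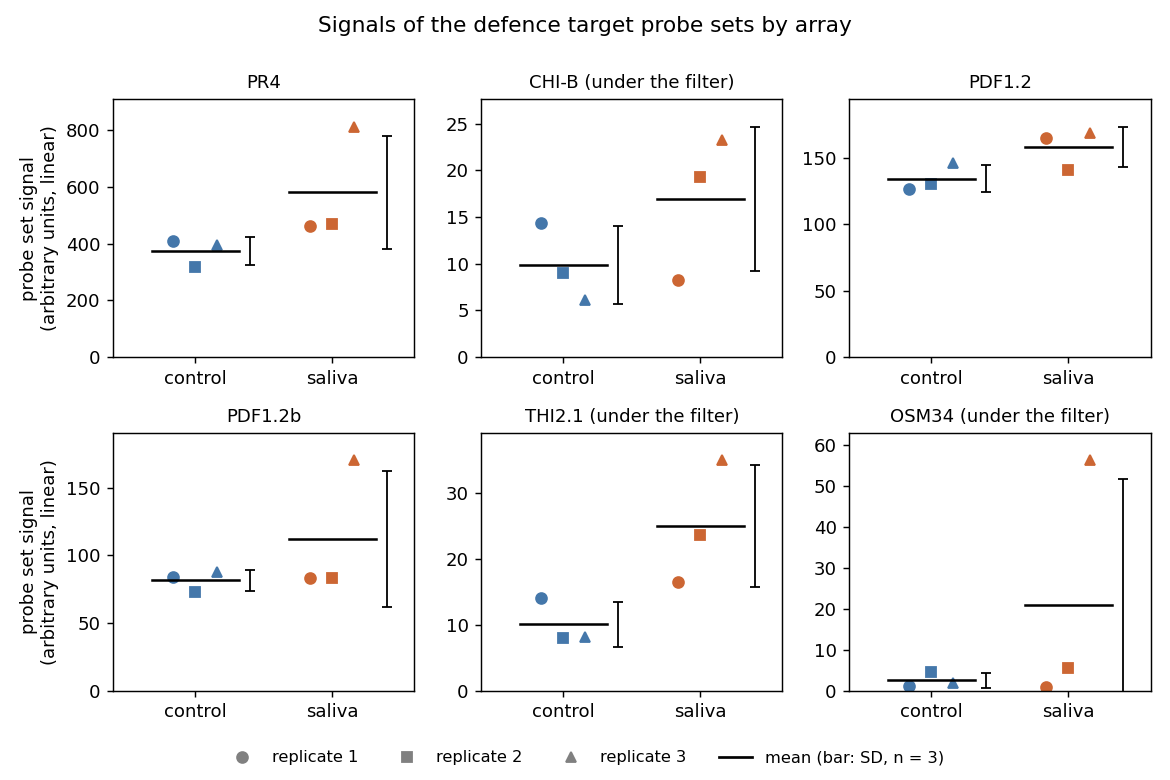
Probe set signal (vertical axes, linear, arbitrary units, starting at 0) of the defence genes PR4, CHI-B and PDF1.2 and of 3 further defence genes of the ethylene and jasmonate branch, on the 3 control and 3 saliva arrays. Symbols are replicates, horizontal lines are group means and bars are SDs (n = 3), cut off at 0 for OSM34; saliva replicate 3 (triangles) is the highest array in all 6 panels, at 812 for PR4 and 56.4 for OSM34.

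The wider ethylene list held 58 genes for synthesis, perception and signalling, other ERF genes, other defence genes and upstream kinases. The annotation named a probe set for 7 of them, 4 were tested, and 0 of the 4 passed a limma adjusted p of 0.05 or an unadjusted p of 0.05. Over all probe sets tested these shares were 0.0586% and 10.2%. Of the 4, 3 were higher and 1 lower, with a median of 0.09. Over all probe sets tested 7030 of 13647 were higher, with a median of 0.01. Groups did not overlap for 1 of the 4, EIN3, against 15.5% of all probe sets tested. These counts are too small to read against the shares. With 7 of 58 genes named, the list covers a small part of the pathway. No gene of the synthesis and kinase groups was measured under its name.

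In the signalling group, EIN3, the central transcription factor of the ethylene response, had signals of 389, 425 and 416 on the control arrays and 490, 458 and 442 with saliva. The groups did not overlap, and the difference was 0.17 ± 0.10 (95% interval -0.05 to 0.39, limma adjusted p = 0.605). It was 0.13 to 0.20 with single arrays left out. RTE1, which promotes the activity of the ethylene receptor ETR1, had signals of 59.7 to 69.0 on the control arrays and 62.6 to 65.7 with saliva and differed by -0.03 ± 0.11. DEWAX (AT5G61590), an ERF gene next to ERF104 on chromosome 5 that represses wax synthesis, had signals of 1069 to 1280 on the control arrays and 981 to 1282 with saliva and differed by 0.00 ± 0.12. Saliva replicate 1 was the lowest array for DEWAX as for ERF104, while control replicate 2, the highest for ERF104, was the second lowest for DEWAX.

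In the group of other defence genes, PDF1.2b, a defensin gene whose probe set is marked by Affymetrix as matching other transcripts as well, had signals of 84.2, 72.5 and 87.7 on the control arrays and 82.9, 83.1 and 170 with saliva. Only saliva replicate 3 lay above the controls, and the difference of 0.33 ± 0.20 (limma adjusted p = 0.623) was 0.03 without that array. OSM34, an osmotin-like gene, was under the filter at 1.104, 4.66 and 1.94 on the control arrays and 0.838, 5.47 and 56.4 with saliva. It differed by 0.68 ± 0.46 in the fit without the filter (limma adjusted p = 0.77) and by 0.04 without saliva replicate 3. The thionin gene THI2.1, also under the filter, had signals of 14.0, 8.004 and 8.11 on the control arrays and 16.5, 23.6 and 34.9 with saliva. Its groups did not overlap, and its difference in the fit without the filter was 0.64 ± 0.19 (limma adjusted p = 0.47) and 0.47 ± 0.17 without saliva replicate 3. The defensin gene PDF1.1 had signals between 0.421 and 0.659 on the 6 arrays.

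Saliva replicate 3 was the highest of the 6 arrays for all 7 named defence gene probe sets, PR4, CHI-B, PDF1.2, PDF1.1, PDF1.2b, THI2.1 and OSM34, of which 4 were under the filter. Over all probe sets without the Affymetrix controls 22% were highest on this array. The count was made after the values were seen, PDF1.2 and PDF1.2b may share signal, and PDF1.1 lay too low to be read. The array was also the one farthest from the rest over all genes, and the part of that in the defence genes was not tested. Since the groups of PR4 and THI2.1 did not overlap over the 6 arrays, they could not overlap without saliva replicate 3. Their separation without it is therefore no further support. The other saliva values of PR4 were 462 and 468, against at most 411 in the controls. Those of THI2.1 were 16.5 and 23.6, against at most 14.0.

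**Figure D4:**
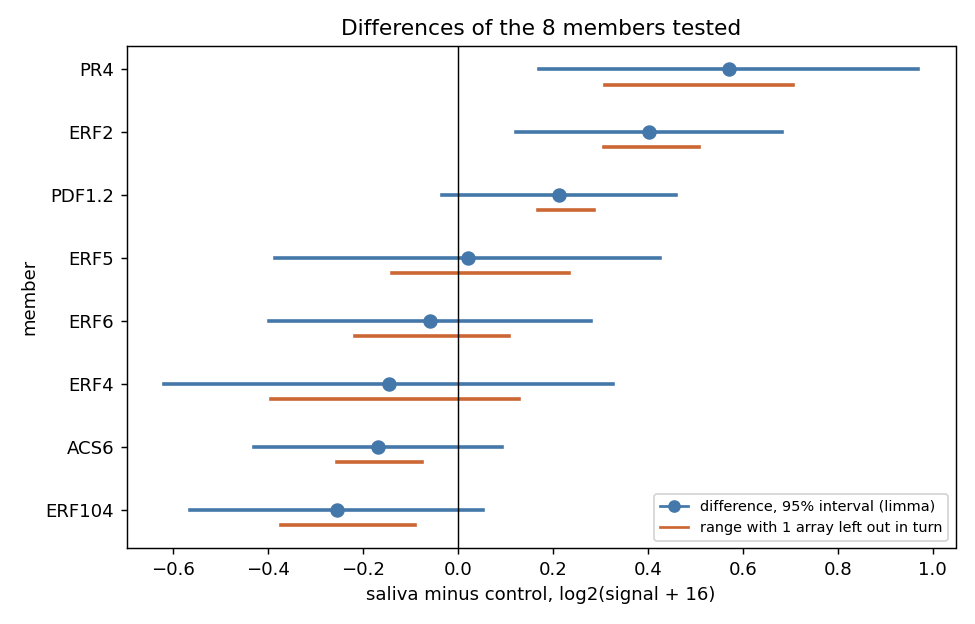
Difference between saliva and control (horizontal axis, log2(signal + 16)) for the 8 members tested, with points and blue lines for the limma estimate and its 95% interval and orange lines for the range with 1 of the 6 arrays left out in turn. The intervals of PR4 (0.17 to 0.97) and ERF2 (0.12 to 0.68) lie above 0 before adjustment, and those of the other 6 include 0.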

How the data were processed

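The deposited table gives each probe set 1 signal per array, which is a linear intensity. MAS5, GCOS and limma are named in the submitters' processing notes, with no roles or versions. The table had 0 columns of another sample, and its scaling was kept, since the mean after leaving out the lowest and highest 2% was equal on all arrays.

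After removal of 64 Affymetrix control probe sets, 16 was added before log2, and the 40% of the other 22746 probe sets with the lowest mean over all 6 arrays were left out. The lowest mean kept was 5.04, a signal of 16.8. The comparison of saliva with control used limma 3.58.1 under R 4.3.3 (lmFit, eBayes with a mean-variance trend), with two-sided Benjamini-Hochberg adjustment over all 13647 probe sets and a threshold of 0.05. Members under the filter were read from the same fit without it. The fit was tested on simulated data. The small number of arrays limits the precision.

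Names came from the platform annotation, matched by gene identifier to RefSeq (TAIR10.1), and for 9 members from the list that defined them. The members and lists were chosen with earlier results of these data known. The text names all members, all listed genes and markers that the annotation names, and the 5 named probe sets most like the mean profile of the tested ERF genes. Of the 58 listed genes 57 had a symbol that matched their locus, and the other 1 had no probe set named. Alternatives were other offsets, filters, normalizations and variance models, array weights, a replicate block and each array left out, 15 in all. The replicate numbers were not taken as pairs, and the check described with the alternatives does not exclude a pairing.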

Additional observations from a re-analysis of the deposited data

How the results depend on the processing

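Under 15 other settings 0 members and 0 genes of the wider ethylene list passed an adjusted p of 0.05, as before. The count over all probe sets, 8, became 2 when the offset was 1 and 2 when it was 64. It was 1 if dim probe sets were kept, 2 after removal of the lowest 60%, 1 under quantile normalization (1 higher and 0 lower, against 6 higher and 2 lower), 1 if the variance had no trend and 53 with array weights, and it ran from 1 to 14 with single arrays left out; the cause was not tested. With the replicate number as a block it was 29, with 0 members. Same-numbered arrays had correlations of their deviations from the group means of -0.059, 0.116 and 0.152 for replicates 1, 2 and 3. The arrays of replicates 2 and 3 correlated best with their own number, and those of replicate 1 did not. The numbers were not taken as pairs, but a pairing is not excluded. ERF2 ran from 0.30 to 0.51 and PR4 from 0.31 to 0.71 over these settings, each with an unadjusted p under 0.05 in all of them. The settings reuse the same arrays, and these genes were singled out by that p in the main fit. Their steadiness is therefore no further support. Differences near 0 changed sign: ERF5 was -0.017 with array weights, DEWAX was -0.010 with arrays centred on their medians, and with single arrays left out ERF5 ran from -0.14 to 0.23, ERF4 from -0.39 to 0.13, ERF6 from -0.22 to 0.11, RTE1 from -0.083 to 0.0011 and DEWAX from -0.076 to 0.11. The fit with no filter and without saliva replicate 3 was added after the data were seen. It gave 0.022 for ERF4, 0.11 for ERF6 and -0.076 for DEWAX. These are the same values as with the filter and without that array, since the filter does not enter a difference. ERF5 had no value after removal of the lowest 60%. Dim signals limit ERF1, CHI-B, OSM34, THI2.1 and PDF1.1, and 3 arrays a group limit all values.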
